A study of Mus musculus with 12 samples.

Results

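The genes described here sense long-chain fatty acids or carry them into and through cells, and were measured in the stomachs of Car9-/- and wild-type mice. The 9 members were chosen by the genotype difference itself: Ffar4 was picked because it was higher, and Slc27a2 because it was lower, in Car9-/- stomach, and Slc27a1, Slc27a3, Slc27a4, Cd36, Fabp1, Fabp2 and Fabp5 were added as their relatives and partners. They are 9 of 19406 genes that the array's annotation names, and 11 of its 46643 probes carry their symbols. Because the genotype difference selected them, their genotype values are a description, and the count of members that limma calls is given once, with nothing read from it. Tests are drawn on only for sex, for the interaction of genotype and sex, for relations with markers of neighbouring tissue and for other genes of fatty acid metabolism.

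FFAR4 (also called GPR120) is a G protein-coupled receptor of the cell surface that binds long-chain fatty acids, and it is known from hormone-releasing cells of the gut and stomach, adipocytes and macrophages. Proteins of the SLC27 family (FATP1 to FATP4) take up fatty acids and join them to coenzyme A, which keeps them inside the cell. CD36 is a scavenger receptor that helps fatty acids across the membrane, and the FABP proteins bind them in the cytosol.

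The study compared 6 Car9-/- mice with 6 wild-type mice, all of the C57BL/6 strain and kept free of specific pathogens on the same diet. Car9-/- mice carry a targeted disruption of Car9 in the whole animal, the gene of carbonic anhydrase IX, a membrane enzyme of the gastric epithelium that converts carbon dioxide to bicarbonate. Ages were 10 to 12 months in the Car9-/- group and 8 to 12 months in the wild-type group, and each genotype had 3 males and 3 females. Total RNA from the body of the stomach of each mouse was amplified and labelled. The labelled copies were hybridized, unpooled, to 1 array per mouse on Illumina Mouse-6 BeadChips, and each mouse is 1 replicate.

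Stretches of 250 bases just upstream of the transcription start are shown for the receptor and the transporter that the results turn on, 5′ to 3′ on the + strand, from RefSeq on GRCm38.p6. The Ffar4 stretch lies at chr19:38096829-38097078 and the Slc27a2 stretch at chr2:126552774-126553023, with the genes downstream at chr19:38097079-38114263 and chr2:126553024-126588243. Capitals mark matches, on either strand, to 6 short motifs: the core of nuclear receptor sites, AGGTCA, the TATA box as TATAAA, the CCAAT box, the GC box as GGGCGG, and the hypoxia response cores written ACGTG or else GCGTG.
Ffar4: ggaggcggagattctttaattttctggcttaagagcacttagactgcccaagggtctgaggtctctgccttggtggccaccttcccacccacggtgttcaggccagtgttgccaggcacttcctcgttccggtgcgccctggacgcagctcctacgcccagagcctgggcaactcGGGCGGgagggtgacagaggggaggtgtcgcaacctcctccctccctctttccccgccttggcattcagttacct
Slc27a2: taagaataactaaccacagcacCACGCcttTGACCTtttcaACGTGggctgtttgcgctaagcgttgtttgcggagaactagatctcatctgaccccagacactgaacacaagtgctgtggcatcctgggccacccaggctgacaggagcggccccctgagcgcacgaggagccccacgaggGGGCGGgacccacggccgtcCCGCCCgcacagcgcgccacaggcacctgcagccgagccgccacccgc
The Ffar4 stretch was 61.2% G or C and held a single match, GGGCGG, which began 75 bases before the start. The Slc27a2 stretch was 64.0% G or C and held GCGTG on the minus strand at 228 bases, AGGTCA on the minus strand at 220 bases, ACGTG at 209 bases, and GGGCGG at 68 bases and, on the minus strand, at 48 bases before the start. No 2 of the marked matches overlapped. Such short motifs are common: among 32851 mouse promoters with windows of the same length, 14% held AGGTCA, 16.6% ACGTG, 28.2% GCGTG and 32.7% GGGCGG, against 12.4% with TATAAA and 33.8% with CCAAT. A match describes the sequence and shows no binding.

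Car9, the disrupted gene, was lower in all 6 Car9-/- stomachs. Its log2 signal at probe 2340128 averaged 7.96 ± 0.15 in Car9-/- mice and 9.63 ± 0.13 in wild-type mice (SD, n = 6 each), and the log2 fold change (Car9-/- over wild type) at a further probe, 50278, was -1.18 with a standard error (SE) of 0.13. Both probes were still detected in Car9-/- mice, and whether they lie in the disrupted part is not known from the sources used here. Markers of the stomach body were detected on all 12 arrays, namely Atp4a and Atp4b of acid-secreting parietal cells, Pgc and Cblif of pepsinogen-secreting chief cells, and Muc5ac and Tff1 of mucous pit cells. Median signals were 83.3 to 101.4 units in Car9-/- arrays and 75.6 to 89.6 units in wild-type arrays, lowest in wild-type mice 4, 5 and 6, and 18141 to 20276 probes were detected per array. A probe counts as detected where BeadStudio's detection p, which sets its signal against negative control beads, is under 0.01. Among 20751 tested probes, limma's moderated test at a Benjamini-Hochberg adjusted p under 0.05 called 5.34% higher and 5.25% lower in Car9-/- mice, so that 50.4% of the calls were higher. Scaling each array by its median in place of quantile normalization, which gives every array the same distribution, moved the median of all probes by 0.11 on the log2 scale, and 89.4% of its calls were higher.

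Of the 11 member probes, 7 from 6 of the 9 genes were detected on at least 3 arrays and entered the tests. The other 4, the probes of Cd36, Fabp1 and Fabp2 and a second Fabp5 probe (4810497), were not detected on any of the 12 arrays, so these data give no level for CD36 or for the liver and intestinal binding proteins FABP1 and FABP2. By limma's call, 1 member probe was higher in Car9-/- mice and 3 were lower, beside the backgrounds of 5.34% and 5.25%, and 3 were not called. The groups did not overlap at 1 probe that was higher and 2 that were lower, where 2.27% of all tested probes were higher and 2.27% lower without overlap. These counts follow from how the members were picked.

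Ffar4 was the member that was higher in Car9-/- mice. Its log2 signal (probe 2350398) ran from 8.65 through a median of 9.46 to 9.81 in Car9-/- mice, and from 7.61 through a median of 7.70 to 8.26 in wild-type mice. Car9-/- mouse 6 was the lowest of its genotype and wild-type mouse 3 the highest of its own, and 0.39 still separated them. The means were 9.41 ± 0.42 in Car9-/- mice and 7.78 ± 0.24 in wild-type mice (SD, n = 6 each), a log2 fold change of 1.62 (SE 0.18) or 3.08-fold. Over 24 alternative settings the fold change lay between 1.496 and 1.94 on the log2 scale, which describes the same values handled in other ways.

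In bulk RNA, fewer cells of a type and less RNA per cell cannot be told apart, which holds for every gene here. Markers of endocrine cells, tuft cells and macrophages did not all move one way beside Ffar4. Of the 8 tested genes of gastric endocrine cells, 3 were lower (Sst, Hdc and Chga, the genes of somatostatin, of the histamine-forming enzyme and of chromogranin A) and none was higher, with summed signals of 35438 to 60955 units in Car9-/- mice and 52317 to 56700 in wild-type mice. Ghrl, which encodes ghrelin, had a log2 fold change of -0.12 at its brightest probe (SE 0.07, limma adjusted p = 0.30), and its other probe was called lower, with -0.58 (SE 0.15, limma adjusted p = 0.0277). Of 4 tested tuft cell genes, 3 were higher (Trpm5, Gnat3 and Avil), or 2 without Gnat3, which passed the detection filter only through Car9-/- arrays. The remaining gene, Dclk1, had a log2 fold change of 0.50 (SE 0.16, limma adjusted p = 0.0578). Summed tuft cell signals, mostly of Avil, were 4291 to 5664 units in Car9-/- mice and 1824 to 4628 in wild-type mice. Of 6 macrophage genes, 1 was higher (Cd14), and the sums were 2409 to 3395 units in Car9-/- mice and 2161 to 4775 in wild-type mice. By limma's call, 37.5% of the endocrine, 75% of the tuft cell (with Gnat3) and 16.7% of the macrophage genes passed, against 10.6% of all tested probes. The part of these cells in the Ffar4 difference was not tested.

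Slc27a2, which encodes FATP2, a transporter and very-long-chain acyl-CoA synthetase best known from liver and kidney, was lower in Car9-/- mice at both of its probes. At the brighter probe, 104480458, its log2 signal ran from 6.41 through a median of 6.98 to 8.44 in Car9-/- mice, and from 8.59 through a median of 9.04 to 9.87 in wild-type mice. Car9-/- mice 5 and 6 came within reach of the wild-type range, with 8.27 and 8.44, while Car9-/- mice 1 and 4 fell below detection. The means were 7.26 ± 0.89 in Car9-/- mice and 9.17 ± 0.53 in wild-type mice (SD, n = 6 each), which is a log2 fold change of -1.92 (SE 0.38) or 3.77-fold lower. The 2 undetected mice limit this value, and with background correction (neqc) it was -2.65 (SE 0.56).

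At the dimmer Slc27a2 probe, 2320537, the log2 signal ran from 6.00 through a median of 6.52 to 7.70 in Car9-/- mice, and from 7.71 through a median of 8.21 to 8.87 in wild-type mice. The groups touched, with 0.0077 between Car9-/- mouse 6 and wild-type mouse 3. The probe was detected in Car9-/- mice 3, 5 and 6 and in all 6 wild-type mice, so its lowest Car9-/- values sit at background, and the log2 fold change of -1.56 (SE 0.29, 2.94-fold lower) includes them. With background correction it was -2.45 (SE 0.46). Deviations from the genotype means at the 2 probes ran together across the 12 mice (Pearson's r = 0.978), as 2 readings of the same gene in the same RNA.

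Markers of tissue that borders the stomach body were examined beside Slc27a2. Of 17 tested genes of the exocrine pancreas, 2 were lower in Car9-/- mice (Try4 and Amy2a5, a trypsin and the pancreatic amylase) and none was higher, a share of 11.8% that is near the 10.6% of all tested probes called in either direction. Their summed signals were 61223 to 106774 units in Car9-/- mice and 113603 to 242884 in wild-type mice. Bright genes weigh most in these sums, and Pla2g1b and Clps averaged 15.24 and 15.14 in Car9-/- mice and 15.52 and 15.42 in wild-type mice. Amy2a5 was 15.16, 15.22 and 15.03 in wild-type mice 1, 2 and 5, where the elastase gene Cela3b was 6.43, 6.40 and 6.48. Cela3b was 11.67 and 11.65 in wild-type mice 4 and 6, and 6.11 to 6.65 in Car9-/- mice. The mean level of the list, which weighs dim and bright genes alike, overlapped, at -1.05 to -0.40 in Car9-/- mice and -0.60 to 2.66 in wild-type mice, with wild-type mice 4 and 6 highest. Of 7 adipose genes, 1 was lower (Aoc3, 14.3%), with sums of 1807 to 2815 units in Car9-/- mice and 2892 to 10515 in wild-type mice and overlapping mean levels of -0.81 to -0.12 in Car9-/- mice and -0.56 to 1.48 in wild-type mice. Of 3 tested liver genes, 1 was lower (Ttr, the transport protein transthyretin, 33.3%), with sums of 2469 to 5636 units in Car9-/- mice and 4956 to 12245 in wild-type mice. The albumin gene Alb was detected on fewer than 3 arrays.

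The Slc27a2 difference at the brighter probe was -1.48 without wild-type mice 4, 5 and 6, -1.40 after adding the pancreas level to the fit and -1.52 after adding the adipose level. The dimmer probe behaved alike, at -1.18, -1.10 and -1.23. The part of pancreas tissue in the Slc27a2 difference was not tested. Within genotype and without wild-type mice 4 and 6, which stand apart in pancreas level, Slc27a2 and that level had r = 0.69 over 10 mice (permutation p = 0.0475, adjusted p = 0.51 over 24 relations) and Spearman's rho = 0.71 (permutation p = 0.0372, adjusted p = 0.45). Leaving out wild-type mice 1 and 5, the farthest from the median level, gave r = 0.70. Among the 10 mice, Cela3b of the pancreas list was 6.11 to 6.65 in Car9-/- mice and 6.24 to 6.48 in wild-type mice. Amy2a5 was 10.36 to 13.58 in those Car9-/- mice and 13.78 to 15.22 in those wild-type mice. It was not tested whether the level reflects pancreas tissue in these 10 mice.

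Slc27a2 was also uneven among the Car9-/- mice, and 2 of the females, mice 5 and 6, were highest. Female 3 lay among the males at the brighter probe. At the dimmer probe female 3, with 6.63, lay above the males, which had 6.00, 6.41 and 6.29 and were below detection there. At the brighter probe the 3 Car9-/- males averaged 6.62 and wild-type males 9.16, while Car9-/- females averaged 7.89 and wild-type females 9.19. The log2 fold change was -2.54 in males and -1.29 in females (SE 0.43 each). Their difference, the interaction of genotype and sex, was -1.25 (SE 0.60) and did not pass limma's test (adjusted p = 0.57). The marker level of chief cells, the mean of 6 genes centred over the mice, was -1.17, -0.66 and -0.75 in Car9-/- males 1, 2 and 4 and 0.04, 0.21 and 0.13 in Car9-/- females 3, 5 and 6, against 0.10 to 0.62 in wild-type mice. Of these chief cell genes, 2 were lower in Car9-/- mice (Bhlha15 and Rab26), 33.3% against 10.6% of all tested probes. The other Bhlha15 probes had log2 fold changes of -0.08 and -1.23, and the other Rab26 probe had -0.28. The called Rab26 probe was detected in 3 Car9-/- mice and 6 wild-type mice. Cblif, Chia1 and the called probes of Bhlha15 and Rab26 were lower in every Car9-/- male than in every Car9-/- female. Pgc and Rab3d overlapped between the sexes. Bhlha15 was 8.44, 8.28 and 8.18 in Car9-/- males 1, 2 and 4 and 9.43, 10.55 and 9.87 in Car9-/- females 3, 5 and 6. Cblif was 13.94, 13.87 and 14.03 in those males and 14.35, 14.46 and 14.23 in those females. Chia1, an acidic chitinase, was 9.87, 12.92 and 12.76 in Car9-/- males 1, 2 and 4 and 15.34, 14.44 and 15.32 in Car9-/- females 3, 5 and 6. Pgc was 14.83, 15.13 and 14.91 in those males and 14.94, 14.97 and 14.94 in those females. Whether chief cells had a part in the Slc27a2 values was not tested.

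**Figure D1:**
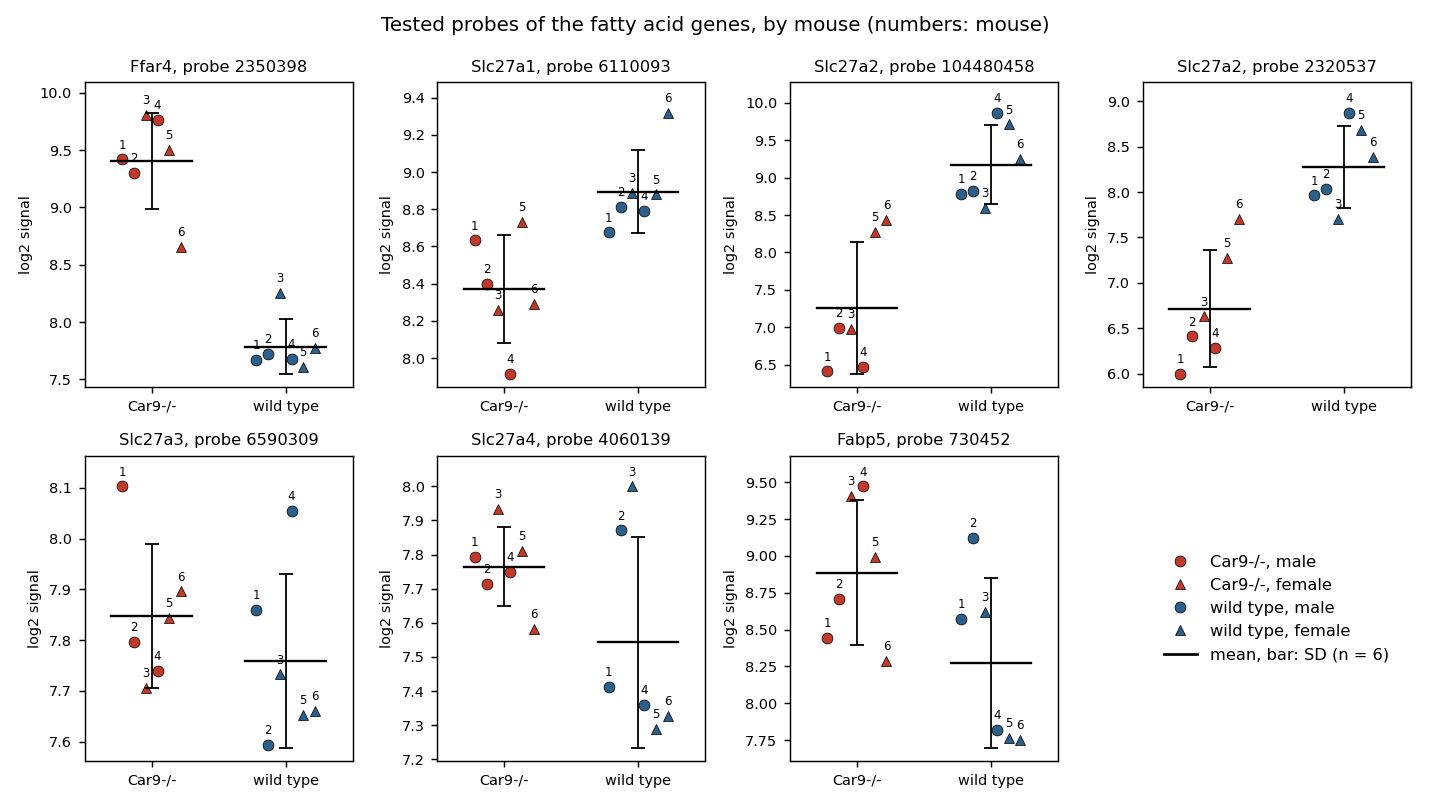
Log2 signal of each tested probe by mouse, with Car9-/- mice left and wild-type mice right, circles for males, triangles for females, lines for means and bars for SD (n = 6). Ffar4 separates the genotypes by 0.39 and the brighter Slc27a2 probe by 0.15, the dimmer one by 0.0077, while the other 4 probes overlap.

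Slc27a1, which encodes FATP1, the insulin-responsive transporter of muscle and fat, was lower in Car9-/- mice by a smaller margin. Its log2 signal (probe 6110093) ran from 7.91 through a median of 8.35 to 8.73 in Car9-/- mice, and from 8.68 through a median of 8.85 to 9.32 in wild-type mice. Only Car9-/- mouse 5 reached into the wild-type range, above wild-type mouse 1. On average Slc27a1 fell by 0.52 on the log2 scale (SE 0.14). Over 24 alternative settings the difference lay between -0.62 with background correction and -0.32 under median scaling.

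Slc27a3 and Slc27a4 differed less. Slc27a3, which encodes FATP3, which acts mainly as an acyl-CoA synthetase inside the cell, ran from 7.71 through a median of 7.82 to 8.10 in Car9-/- mice and from 7.59 through a median of 7.70 to 8.06 in wild-type mice. The groups lay over each other, and the log2 fold change was 0.09 (SE 0.09). Slc27a4, which encodes FATP4, the main family member of intestine and skin, ran from 7.58 through a median of 7.77 to 7.93 in Car9-/- mice and from 7.29 through a median of 7.39 to 8.00 in wild-type mice. Wild-type mice 1, 4, 5 and 6 were below every Car9-/- mouse, whereas wild-type mice 2 and 3 were at 7.87 and 8.00. Its log2 fold change of 0.22 (SE 0.13) became 0.0034 without wild-type mice 4, 5 and 6. Those were the wild-type mice low in forestomach markers, described below, and Car9-/- mice 1 and 6, also low, stayed in that fit. Slc27a4 averaged 7.69 in the low Car9-/- mice and 7.33 in the low wild-type mice, and 7.80 against 7.76 in the others.

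Fabp5, which encodes the epidermal fatty acid binding protein, had the widest wild-type spread of the members. At the detected probe, 730452, its log2 signal ran from 8.29 through a median of 8.85 to 9.47 in Car9-/- mice and from 7.75 through a median of 8.20 to 9.12 in wild-type mice. Wild-type mice 4, 5 and 6 were lowest, with 7.82, 7.77 and 7.75, and wild-type mouse 2 lay above 4 of the 6 Car9-/- mice. The log2 fold change was 0.61 (SE 0.28), and it was 0.11 without wild-type mice 4, 5 and 6. That fit kept Car9-/- mice 1 and 6, which like the mice removed were low in forestomach markers.

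**Figure D2:**
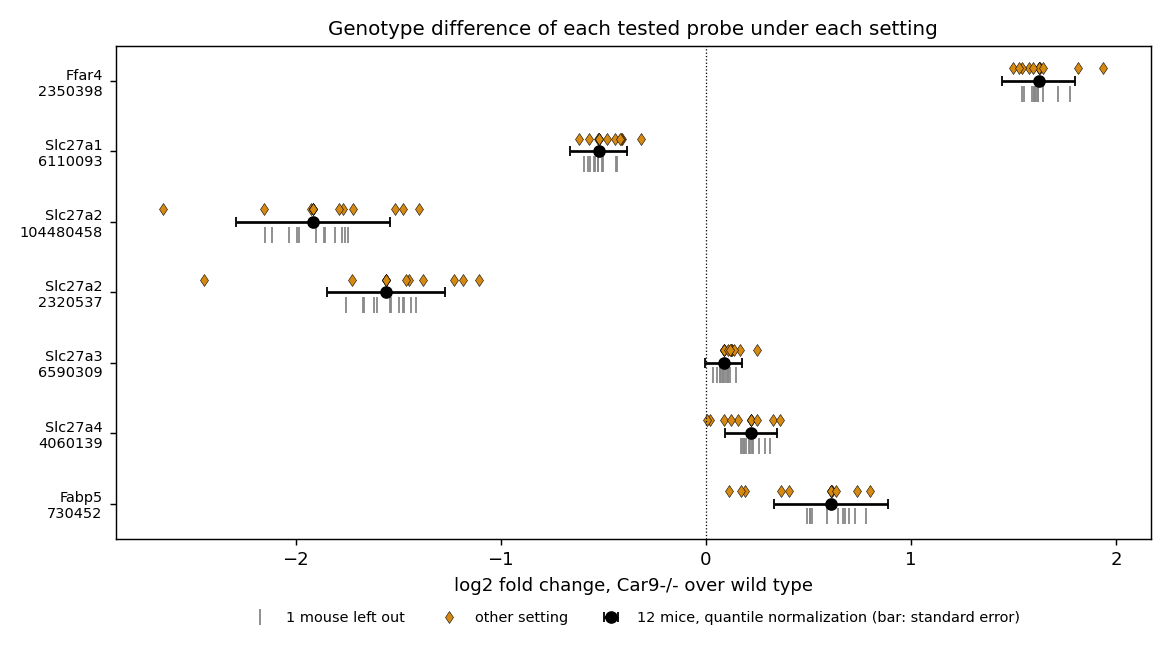
Log2 fold change, Car9-/- over wild type, of each tested probe with its SE (circles, bars), with 1 mouse left out (grey ticks) and under the other settings (diamonds). Ffar4 stays between 1.496 and 1.94, the 2 Slc27a2 probes between -2.65 and -1.10, and Fabp5 between 0.11 and 0.80.

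The squamous lining of the forestomach, which borders the stomach body in mice, gave high signals in 7 mice and low ones in 5, from both genotypes. The level of its 14 tested genes was -2.25 and -2.23 in Car9-/- mice 1 and 6 and 0.61 to 2.58 in the other Car9-/- mice, against -2.54 to -2.49 in wild-type mice 4, 5 and 6 and 0.99 to 2.75 in wild-type mice 1, 2 and 3. None of the 14 passed limma between the genotypes, and 3 had an unadjusted p under 0.05. The defining keratin genes Krt5 and Krt14 were detected in 4 Car9-/- mice and 3 wild-type mice. Summed signals of the list were 2453 to 93108 units in Car9-/- mice and 1686 to 107127 in wild-type mice.

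Fabp5 followed that level. It averaged 8.37 in the 2 low Car9-/- mice, 7.78 in the 3 low wild-type mice, 9.14 in the other 4 Car9-/- mice and 8.77 in the other 3 wild-type mice. Because the mice fall into 2 clusters by squamous level, no correlation over all 12 is given. Among the 7 mice of the higher cluster the deviations of Fabp5 from its genotype means ran with those of the level at r = 0.98 (exact permutation p = 0.0208, smallest possible 0.00694, adjusted p = 0.50 over 24 relations) and Spearman's rho = 0.96 (exact permutation p = 0.0278, adjusted p = 0.45). Without the 2 mice farthest from the median level, Car9-/- mouse 3 and wild-type mouse 2, r was again 0.98. A single relation over 7 mice could not reach an adjusted p below 0.167, so the adjustment says nothing of the squamous relations. Of the 24 relations, of 6 members with the levels of 4 neighbouring tissues, 0 passed, and 2 had an unadjusted p under 0.05, those of Fabp5 and Slc27a2 named here.

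With the squamous level as a covariate the genotype difference of Fabp5 was 0.40 (SE 0.08), against 0.61 without it. Ffar4, Slc27a3 and Slc27a4 had r = 0.32, -0.78 and 0.41 with the squamous level among the same 7 mice (exact permutation p = 0.53, 0.0694 and 0.53). For the epithelium of the intestine, the tissue of FABP1 and FABP2, 1 of 7 tested genes was lower in Car9-/- mice (Anpep, 14.3% against 10.6% of all tested probes). Sums of that list were 18418 to 33479 units in Car9-/- mice and 30643 to 37971 in wild-type mice. Its defining genes Sis and Alpi were detected on fewer than 3 arrays. No relation of a member with the intestinal level passed over the 12 mice (r from -0.56 to 0.49, lowest permutation p = 0.0879, adjusted p = 0.51).

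**Figure D3:**
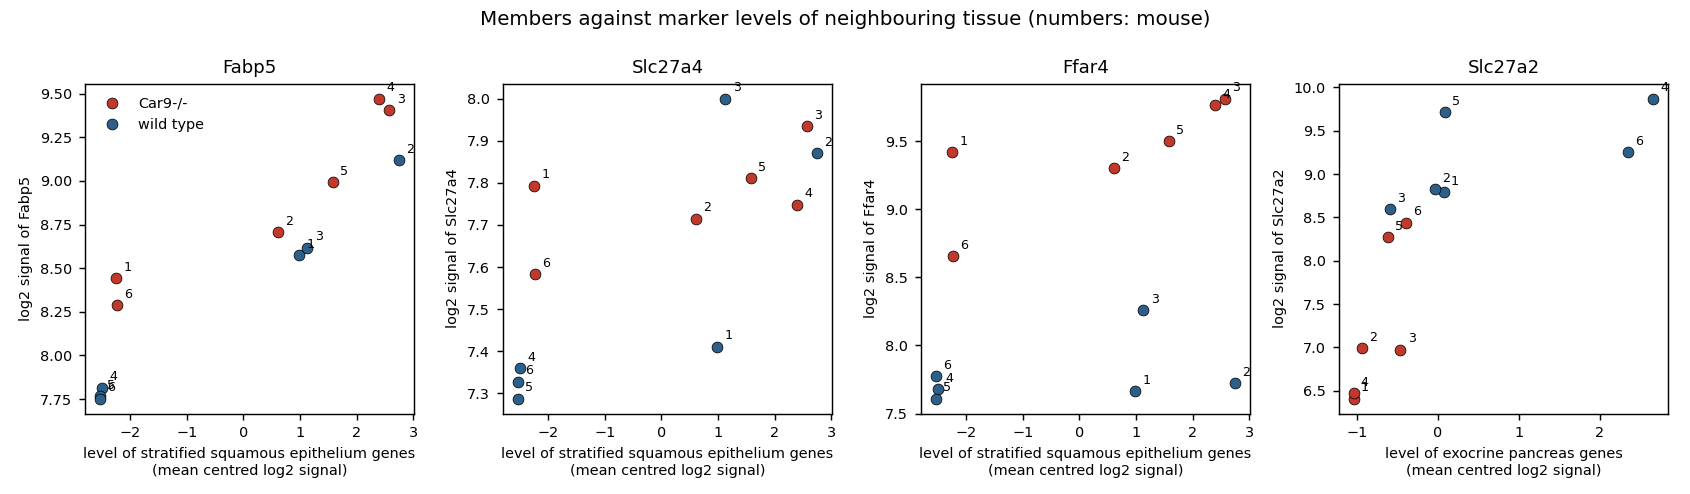
Log2 signal of Fabp5, Slc27a4 and Ffar4 against the level of squamous epithelium genes, and of Slc27a2 (brighter probe) against that of exocrine pancreas genes, 1 point per mouse. Fabp5 rises with the level within the 7 mice above 0, and wild-type mice 4 and 6 stand apart in pancreas level at 2.66 and 2.35.

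Neither sex nor its interaction with genotype was called for a member. Over all tested probes limma called 5 between males and females (0.0241%) and 3 in the interaction (0.0145%), while 943 and 1920 probes had an unadjusted p under 0.05. Of the 7 member probes, 0 were called in either test and 0 had an unadjusted p under 0.05. The Ffar4 log2 fold change was 1.81 in males and 1.44 in females (SE 0.26 each), an interaction of 0.36 (SE 0.37, limma adjusted p = 0.82). Among the sex differences the brighter Slc27a2 probe had the largest, at -0.65 for males minus females with genotype in the fit (SE 0.34, limma adjusted p = 0.9997). With 3 mice of each sex per genotype, differences of this size could not be told from none.

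The genes whose deviations from the genotype means were most like those of Ffar4 over the 12 mice were Cpne2 (r = 0.86), Urah (0.84), Brk1 (0.81), Them4 (0.79) and Sdr42e1 (0.79). Of these, Urah passed limma between the genotypes, with a log2 fold change of 0.84 (SE 0.21, adjusted p = 0.0281). The genes most like Slc27a2 were Fabp3 (0.96), 1810041H14Rik (0.96), Acadsb (0.96), Ndufa1 (0.94) and Slc44a3 (0.94), all with negative log2 fold changes, from -0.84 for Fabp3 to -0.52 for Ndufa1. Among the members, Ffar4 and the brighter Slc27a2 probe had r = -0.63 and Slc27a4 and Fabp5 had r = 0.73. Within each genotype, Ffar4, Slc27a4 and Fabp5 averaged lower, and Slc27a2 higher, in the mice of low squamous level. The r values over the 12 mice span both squamous clusters, and the part of the clusters was not tested. All r values of this paragraph describe genes read on the same arrays from the same tissue pieces, and no test was made of them.

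Outside the members, 111 genes in 8 lists cover receptors, signalling, transport and metabolism of fatty acids, and 80 of them were tested, each with its brightest detected probe. Between the genotypes limma called 4 higher (3 without Gnat3) and 10 lower (17.5%, against 10.6% of all tested probes), and 66 did not pass. Their median log2 fold change was -0.04, that of all probes -0.0007. The lists were set with earlier results of these data known, so the counts describe them only. Of the 14 called genes, 1 kept its call without wild-type mice 4, 5 and 6 (Plin4), and 0 did so after adding the pancreas or the adipose level to the fit, though all 14 kept their sign. With 1 mouse left out, 7 to 14 of the calls held, fewest without Car9-/- mouse 1 or Car9-/- mouse 4. Plcb3, Fabp3, Cav1, Got2, Acadvl, Lpin1 and Lpl held theirs in all 12 such fits, while Trpm5, Acsl5 and Crat lost theirs in 8 each, Gnat3 and Cyp4a10 in 7 each, Plcb2 in 6 and Plin4 in 2.

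Of 6 other fatty acid receptors 2 were tested and 0 called, nor did either have an unadjusted p under 0.05. Ffar2, a receptor of short-chain fatty acids, had a log2 fold change of -0.24 (SE 0.22), and Hcar2, the niacin receptor, 0.03 (SE 0.58). The receptors Ffar1, Ffar3, Gpr84 and Gpr119 were detected on fewer than 3 arrays.

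Of 9 genes that act with or below such receptors, 3 were higher and 1 was lower (44.4%, against 10.6% of all tested probes), and the list's median was 0.18. Without Gnat3, which passed the detection filter only through Car9-/- arrays, 2 were higher. Gnaq, the G protein subunit through which FFAR4 signals, had 0.22 at its brightest probe (SE 0.07, limma adjusted p = 0.0565), while 1 of its 4 other probes was called higher, with 0.43 (SE 0.10, limma adjusted p = 0.0231), and the other 3 had 0.19 to 0.25. Plcb3, a phospholipase C that G proteins activate, ran from 8.83 through a median of 8.97 to 9.23 in Car9-/- mice and from 8.51 through a median of 8.62 to 8.74 in wild-type mice. The groups did not overlap, and its log2 fold change was 0.40 (SE 0.09, limma adjusted p = 0.0155). Trpm5, a cation channel of taste and tuft cells, was detected in 6 Car9-/- mice and 5 wild-type mice and had a log2 fold change of 0.83 (SE 0.23, limma adjusted p = 0.0407), with 0.28 at its other probe, which was detected in 3 Car9-/- mice and no wild-type mouse and was not called. Gnat3, the G protein subunit gustducin, was detected in 5 Car9-/- mice and no wild-type mouse and was at least 1.08-fold higher, counting undetected arrays at the lowest detected signal. Because only Car9-/- arrays brought it past the detection filter, no p is given. Trpm5 and Gnat3 are also among the tuft cell genes counted beside Ffar4. Plcb2, the phospholipase C of taste and blood cells, was lower in all 6 Car9-/- mice, at 7.05 to 7.41 against 7.42 to 7.73 in wild-type mice, with a log2 fold change of -0.29 (SE 0.08, limma adjusted p = 0.0316).

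Of 12 other transporters and binding proteins 5 were tested, and 3 were lower (60%, against 10.6% of all tested probes), with a median of -0.40. Fabp3, the heart type binding protein, ran from 12.89 through a median of 13.30 to 13.89 in Car9-/- mice and from 14.01 through a median of 14.17 to 14.49 in wild-type mice. The groups did not overlap, and the log2 fold change was -0.84 (SE 0.17, limma adjusted p = 0.0105). Cav1, the coat protein of caveolae, fell by 0.71 (SE 0.14, limma adjusted p = 0.0104), again without overlap. Got2, the mitochondrial aspartate aminotransferase that also binds fatty acids at the cell surface, fell by 0.40 at 1 probe (SE 0.08, limma adjusted p = 0.0127), while its other probe had -0.08. Scarb1, the lipoprotein receptor SR-BI, had a log2 fold change of 0.42 (limma adjusted p = 0.0530). Fabp4, the adipocyte binding protein, and the transporters Slc27a5 and Slc27a6 were detected on fewer than 3 arrays.

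Genes of vessel walls, where Cav1 is abundant, were lower too: of 9 endothelial genes 4 were lower in Car9-/- mice (Pecam1, Emcn, Esam and Gpihbp1). That is 44.4%, against 10.6% of all tested probes. The other probes of Pecam1 and Gpihbp1 had -0.51 and -0.72, and that of Emcn had 0.03. Summed signals were 4643 to 5831 units in Car9-/- mice and 6374 to 7966 in wild-type mice. The part of vessel walls in the Cav1, Fabp3 and Lpl differences was not tested.

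Among genes that handle stored and circulating fat, 3 of 15 were lower and 0 higher (20%, against 10.6% of all tested probes), with a median of -0.20. Lpl, the lipoprotein lipase that frees fatty acids from circulating triglyceride, ran from 11.43 through a median of 12.04 to 12.60 in Car9-/- mice and from 12.59 through a median of 13.20 to 13.69 in wild-type mice. A single Car9-/- mouse overlapped the wild-type range, and the log2 fold change was -1.15 (SE 0.22, limma adjusted p = 0.0093). Plin4, a coat protein of lipid droplets in fat cells, was lower without overlap, with a log2 fold change of -0.96 (SE 0.24, limma adjusted p = 0.0243), and Lpin1, a phosphatidate phosphatase, fell by 0.38 (SE 0.09, limma adjusted p = 0.0196). Pnpla2, the adipose triglyceride lipase, had -0.34 (limma adjusted p = 0.11).

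Activation and oxidation of fatty acids changed at few genes. Of 10 acyl-CoA synthetases 1 was higher, Acsl5, which is known from intestine (log2 fold change 0.29, SE 0.08, limma adjusted p = 0.0388), with a list median of 0.01. The others named, Acsl6, Acsf3 and Acsm3, had -0.38, -0.35 and 0.47 and did not pass. Of 17 genes of mitochondrial beta oxidation 1 was lower, Acadvl, the very-long-chain acyl-CoA dehydrogenase (log2 fold change -0.35, SE 0.07, limma adjusted p = 0.0117), without overlap. Etfa, Etfb and Eci1, electron carriers and an enoyl-CoA isomerase, had -0.26, -0.30 and -0.36 and did not pass. That list's share of 5.88% called lay below the 10.6% of all tested probes, and the synthetases' share of 10% was near it.

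Of 12 peroxisomal genes 1 was lower, Crat, the carnitine acetyltransferase (log2 fold change -0.74, SE 0.20, limma adjusted p = 0.0357), but its 3 other probes had -0.06, 0.04 and -0.08. Abcd2, Abcd3 and Pecr, 2 peroxisomal acyl-CoA carriers and a reductase, had -0.34, 0.53 and -0.17 and did not pass. Of 10 PPAR regulators and targets 1 was lower, Cyp4a10, a fatty acid hydroxylase induced by PPAR alpha (log2 fold change -1.29, SE 0.36, limma adjusted p = 0.0380), with -0.14 at its other probe. Pparg, the nuclear receptor that drives fat cell formation, had 0.62 (SE 0.19, limma adjusted p = 0.0571), and Ppard and Ppargc1b had 0.26 and -0.32 and did not pass. The shares called were 8.33% of the peroxisomal and 10% of the PPAR genes, against 10.6% of all tested probes.

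**Figure D4:**
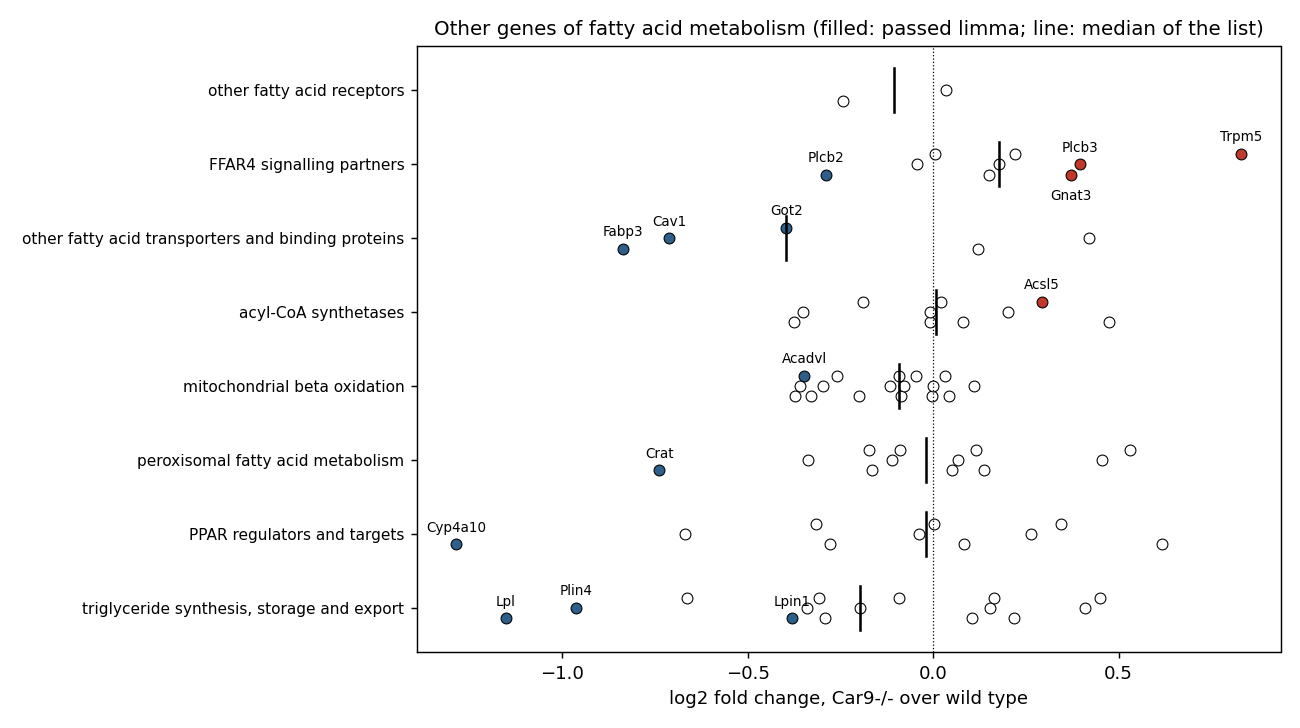
Log2 fold change, Car9-/- over wild type, of the 80 tested genes of 8 fatty acid lists, 1 point per gene, filled where limma called it (red higher, blue lower), with a line at each list's median. The 4 genes called higher lie among signalling partners and synthetases, and 9 of the 10 called lower lie in the other lists.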

How the data were processed

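The deposited intensity of a probe is the linear BeadStudio signal, to which the authors applied neither normalization nor background subtraction, and the deposited detection p-value sets it against the negative controls. A deposited table of log2 values holds the authors' quantile normalization in Chipster. Here log2 intensities of the 12 arrays were quantile-normalized together, with a largest departure of 0.0224 from the deposited log2 values. Testing was limited to the 20751 probes that had a detection p below 0.01 on 3 or more arrays. limma 3.58.1 (R 4.3.3) fitted the genotype, sex and interaction contrasts, with Benjamini-Hochberg adjustment over all tested probes and a threshold of 0.05. Gene symbols came from the platform annotation, which gives 1 symbol for 32794 probes and none for 13794. No slide or batch is named in the sources used here, and the number of arrays limits precision. The log2 scale carries no background subtraction and compresses the folds of dim probes.

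A list level is the mean of its tested genes, each centred over the mice. Relations with levels used deviations from genotype means, with permutation within genotype (1e+05 resamples, exact below 10 mice). The fit was tested on simulated arrays. Named are Car9, all members, up to 4 genes per fatty acid list with the largest limma statistic, the first 2 genes of a marker list and the 5 genes most like Ffar4 or Slc27a2. Called marker genes, and Clps, Pla2g1b, Chia1 and Rab3d, were named after their values were seen. Gnaq and fatty acid genes detected on fewer than 3 arrays were also named outside these rules. The members and lists were chosen with earlier results of these data known. Alternatives were neqc, the authors' values, median scaling, no filter, the study's SD filter (99.4% of probes removed), sex and age, replicate block, array weights, marker levels as covariates, and mice left out, of which the removal of wild-type mice 4, 5 and 6 and the relations within clusters of mice were added after seeing the data. The labels state no pairing, though mice of the same replicate number share sex. A correlation of deviations above 0.1 was found in 1 of 6 such pairs, which cannot show whether mice were matched. Figures were drawn with matplotlib 3.10.9.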

Additional observations from a re-analysis of the deposited data

Results flagged for a closer look

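Among the members and the named genes of the fatty acid lists, 74 groups of 6 mice were examined for a mouse far from the other 5, by the gap to its nearest neighbour over the group's range, and 3 stood out. Chance gives about 1 in 20 such groups. Wild-type mouse 3 was high in Ffar4, at 8.26 against 7.77 for the next wild-type mouse (ratio 0.750), and it remained below all Car9-/- mice. Wild-type mouse 6 was high in Slc27a1, at 9.32 against 8.89 for the next (ratio 0.670), and without it the Slc27a1 difference was -0.44. Car9-/- mouse 5 was low in Abcd3, at 10.02 against 11.23 for the next (ratio 0.764).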

How the results depend on the processing

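The sign of all 7 member probes was the same in every setting tried, and that of the 14 called fatty acid genes too. Counts are given as probes higher and lower, member probes higher and lower, and fatty acid genes higher and lower. Those of the members describe values that chose them and support nothing. The counts were 1108 and 1089, 1 and 3, 4 and 10 with the settings of the report. They became 3585 and 426, 1 and 2, 12 and 5 under median scaling; 880 and 829, 1 and 2, 1 and 8 without the filter; 1918 and 1886, 1 and 3, 9 and 12 with array weights; and 1058 and 1085, 2 and 3, 5 and 12 with the squamous level as a covariate. With the pancreas level they were 31 and 7, 1 and 0, 0 and 0, and with the adipose level 154 and 125, 1 and 0, 0 and 0. Without wild-type mice 4 and 6 they were 457 and 506, 1 and 2, 0 and 5, and without wild-type mice 4, 5 and 6 they were 193 and 192, 1 and 0, 1 and 1. The study's SD filter left 280 probes, 1 of them of a member (Slc27a2), and gave 7 and 5, 0 and 0, 0 and 0. Leaving out 1 mouse gave 653 to 1771 probes higher and 551 to 1589 lower, fewest without Car9-/- mouse 4 and most without Car9-/- mouse 5, with 1 to 1 member probe higher, 2 to 3 lower, and 1 to 9 fatty acid genes higher and 6 to 11 lower. The replicate number as a block, although the labels state no pairing, gave 251 and 210, 1 and 2, 0 and 4. Of the 24 relations with marker levels, 1 passed with all 12 mice pooled, that of Fabp5 with the squamous level, and 0 within clusters of mice. Sex and the interaction were fitted only with the settings of the report, neqc, the authors' values and 1 mouse left out, and called 0 members in each. Hcar2, at 0.03, was -0.68 with the pancreas level, -0.78 with the adipose level, -0.39 with the squamous level, -0.41 without wild-type mice 4 and 6, -0.90 without wild-type mice 4, 5 and 6, and -0.26 to 0.40 with 1 mouse left out. Ffar2 was 0.039 with the adipose level and 0.14 without wild-type mice 4, 5 and 6, and Abcd2 was 0.024 with the pancreas level. The cause of these changes was not tested. A slide block could not be run, since the sources name no slides. The dim Slc27a2 probe is at background in 3 Car9-/- mice and the brighter one in 2, which limits both fold changes.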
